A study of Mus musculus with 6 samples.

Results

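Markers of CA1 pyramidal cells, the excitatory projection neurons of the hippocampal CA1 field, were examined in hippocampal RNA of 6-month-old female mice. The 7 genes were *Mpped1*, *Fibcd1*, *Wfs1*, *Pou3f1*, *Man1a*, *Ndst4*, and *Lefty1*, out of 22180 genes with a transcript cluster of their own. Each gene was taken from the array rows annotated with its symbol alone. All 7 genes had exactly 1 such row, and all 7 lay above the intensity minimum of 50 (5.64 on the log2 scale) that a transcript cluster had to reach in 1 or both groups to be tested. Hippocampi of 3 wild-type mice were compared with those of 3 mice that were *Mutyh*-/- and carried NL-G-F/NL-G-F at the *App* locus (called mutant mice here), with 1 GeneChip Mouse Gene 2.0 ST array for each mouse. Both mutant lines had been backcrossed to C57BL/6J, and hippocampi were taken after perfusion with saline. The mutant mice carry a humanized amyloid-β sequence with the Swedish, Arctic, and Iberian mutations in both copies of *App*, expressed from the endogenous promoter, and lack *Mutyh*, which encodes an adenine DNA glycosylase. Both changes differ together from wild type, and knock-in mice with intact *Mutyh* were not analysed here, so the part of each allele cannot be told apart. The question was whether transcripts typical of CA1 neurons differed between the genotypes, and whether they went up and down together from mouse to mouse.

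CA1 pyramidal cells receive the Schaffer collaterals of CA3 neurons and send the main output of the hippocampus to the subiculum and the entorhinal cortex. Their identity was mapped by in situ hybridization and single-cell profiling, and several of the genes that mark them are unevenly expressed along the long axis of the hippocampus or between the deep and the superficial part of the cell layer. The marker genes themselves share no single pathway. *Wfs1* encodes wolframin of the endoplasmic reticulum, *Fibcd1* a membrane receptor for acetylated sugars, *Man1a* a Golgi mannosidase that trims N-glycans, *Ndst4* an enzyme that modifies heparan sulfate chains, *Pou3f1* a POU-domain transcription factor, *Lefty1* a secreted antagonist of Nodal signalling, and *Mpped1* a protein with a metallophosphoesterase domain. In RNA of whole hippocampus, fewer CA1 cells and less RNA per cell cannot be told apart.

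Promoter windows from 250 bases before to 50 bases after an annotated start were held for 4 of the 7 genes in RefSeq sequences of build GRCm38.p6. They are shown for *Mpped1*, which had the largest difference among the 7 genes, for *Fibcd1*, which followed it from array to array, and for *Wfs1*, which did not. Letters run from 5′ to 3′ on the strand of the gene, and capitals mark CG dinucleotides.
*Mpped1*, first start (chr15:83779773-83780072, plus strand): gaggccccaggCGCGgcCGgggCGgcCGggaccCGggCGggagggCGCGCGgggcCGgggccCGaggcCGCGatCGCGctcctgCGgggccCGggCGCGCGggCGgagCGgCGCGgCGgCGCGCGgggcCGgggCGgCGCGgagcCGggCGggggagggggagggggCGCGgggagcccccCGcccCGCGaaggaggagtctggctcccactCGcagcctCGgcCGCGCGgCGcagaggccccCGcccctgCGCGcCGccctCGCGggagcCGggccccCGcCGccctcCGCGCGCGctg
*Mpped1*, second start (chr15:83784579-83784878, plus strand): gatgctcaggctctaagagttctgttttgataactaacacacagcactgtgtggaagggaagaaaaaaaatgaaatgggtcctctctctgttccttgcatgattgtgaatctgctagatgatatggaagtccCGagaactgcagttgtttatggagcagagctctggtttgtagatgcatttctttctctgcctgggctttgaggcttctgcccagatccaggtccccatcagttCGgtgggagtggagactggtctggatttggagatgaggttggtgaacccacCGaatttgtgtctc
*Fibcd1* (chr2:31845956-31846255, minus strand): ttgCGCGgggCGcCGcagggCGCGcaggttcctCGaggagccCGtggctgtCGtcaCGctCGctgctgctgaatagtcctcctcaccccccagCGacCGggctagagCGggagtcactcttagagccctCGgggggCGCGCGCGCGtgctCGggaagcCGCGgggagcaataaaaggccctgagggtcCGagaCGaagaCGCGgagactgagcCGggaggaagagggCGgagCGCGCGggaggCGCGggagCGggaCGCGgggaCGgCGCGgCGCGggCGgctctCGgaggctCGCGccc
*Wfs1* (chr5:36988933-36989232, minus strand): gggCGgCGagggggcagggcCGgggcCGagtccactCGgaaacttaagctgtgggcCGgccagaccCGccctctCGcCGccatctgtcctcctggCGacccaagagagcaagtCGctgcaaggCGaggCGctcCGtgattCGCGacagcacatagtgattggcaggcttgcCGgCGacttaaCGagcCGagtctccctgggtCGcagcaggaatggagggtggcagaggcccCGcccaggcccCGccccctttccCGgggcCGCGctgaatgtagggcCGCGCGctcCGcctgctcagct
The first start of *Mpped1* had 59 CG dinucleotides, a number reached by 0.1% of the 32851 promoter windows in the table, where the median was 7. *Fibcd1* had 46 (reached by 1.65% of windows), *Man1a* 38 (4.95%), and *Wfs1* 30 (11.7%). The second start of *Mpped1*, 4806 bases further along, was of another kind, with 3 CG dinucleotides (76.7%). Motifs were searched on both strands. The octamer ATGCAAAT, bound by POU factors such as the product of *Pou3f1*, was in 0 of the 5 windows of CA1 markers and in 1.74% of all windows. The E-box CANNTG was in 2 of 5 windows (the second start of *Mpped1* and *Wfs1*; 72.3% of all windows), and its form CAGATG, bound by NEUROD factors, in that of *Wfs1* (17.2%). The TATA box TATAAA (13.6%) and the cAMP response element TGACGTCA (1.79%) were in 0 of 5. The arrays do not tell which start was used.

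The targeted gene *Mutyh* lay below the intensity minimum in both groups, at 5.11 to 5.44 in wild-type and 5.37 to 5.46 in mutant mice (log2), so its signal does not check the labels, and where its probes lie relative to the deleted part is not given in the sources used here. Of hippocampal fields other than CA1, 9 markers of dentate granule cells and 10 of CA2 and CA3 pyramidal cells were looked at. They were above the intensity minimum in both groups except *Map3k15*, a CA2 marker below it in wild type. The minimum was reached by 21159 of 41345 transcript clusters, the neocortex and thalamus markers below among them. Reaching it therefore does not show hippocampal origin. Arrays correlated with each other at 0.983 to 0.989 (Pearson's r). A share of transcript clusters had the same deposited value to the last digit on 2 or 3 arrays of a group, 11.7% of 41345 among the mutant arrays and 0.295% among the wild-type arrays. None of the 7 CA1 markers was among them. The wild-type arrays were first part of another series, and effects of genotype and of series cannot be told apart. Whether both groups were summarized and normalized together is not given in the sources used here, so every difference given here may also contain a difference in processing, which was not tested. Choroid plexus genes differed widely between mice within both groups. The mean of 5 such genes, which include *Ttr*, encoding transthyretin, was 7.51 in wild-type replicate 1 and 8.97 and 9.54 in the other wild-type mice, and 8.12 to 9.30 in mutant mice (log2). Their r with *Mpped1* was −0.47 over the 6 arrays and 0.41 without wild-type replicate 1 and mutant replicate 1, and their part in the results was not tested.

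*Mpped1* had the largest difference of the 7 CA1 markers. Its log2 signal was 8.76, 8.66, and 8.30 in wild-type replicates 1 to 3 and 7.87, 8.11, and 8.31 in mutant replicates 1 to 3. The groups overlapped only through the third replicates, which had nearly the same signal, while the other 2 mice of each group lay clearly apart. Mean values were 8.57 ± 0.24 and 8.10 ± 0.22 (SD, n = 3 mice per group). The difference was −0.48 on the log2 scale (standard error 0.16, 95% interval −0.85 to −0.10), or 71.9% wild type (limma, adjusted *p* = 0.295 over 21159 transcript clusters). *Mpped1* thus did not pass the adjusted test. It was the 1 member of the 7 that was lower at an unadjusted *p* under 0.05, a mark reached in the lower direction by 4.75% of all tested transcript clusters. It did not reach that mark when wild-type replicate 1, wild-type replicate 2, or mutant replicate 1 was left out, with differences of −0.38, −0.43, and −0.36.

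*Fibcd1* was the only member whose 3 mutant values were all below the 3 wild-type values, an order found in 8.11% of all tested transcript clusters. Its log2 signal was 8.54, 8.43, and 8.36 in wild-type and 8.26, 8.28, and 8.35 in mutant mice. The gap between the nearest mice, wild-type replicate 3 and mutant replicate 3, was narrow. The difference was −0.14 (standard error 0.07, 95% interval −0.32 to 0.03), or 90.5% wild type (limma, adjusted *p* = 0.438), which did not pass the test.

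*Wfs1*, mutated in Wolfram syndrome and widely used to stain CA1, had log2 signals of 9.33, 9.53, and 9.20 in wild-type and 9.45, 9.37, and 9.40 in mutant mice. The mutant mice all fell inside the wild-type range. The difference was 0.05 (95% interval −0.18 to 0.28), with bounds of 88.2% and 121% wild type (limma, adjusted *p* = 0.850). *Wfs1* spread over 0.33 among wild-type and 0.08 among mutant mice.

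Both glycan enzymes overlapped between the groups. *Man1a* was 8.83, 8.77, and 8.99 in wild-type and 8.68, 8.97, and 9.04 in mutant mice (log2), with the lowest and the highest of the 6 values both in mutant mice. Its difference was 0.03 (95% interval −0.24 to 0.31, limma, adjusted *p* = 0.922). *Ndst4* was 7.78, 7.44, and 7.70 in wild-type and 7.65, 7.96, and 7.64 in mutant mice. Replicate 2 was the lowest wild-type and the highest mutant mouse. The difference of *Ndst4* was 0.11 (95% interval −0.19 to 0.42), or 108% wild type (adjusted *p* = 0.723).

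The transcription factor gene *Pou3f1* was 7.71, 7.38, and 7.75 in wild-type and 7.66, 7.92, and 7.63 in mutant mice (log2). Replicate 2 was again the lowest in wild type and the highest in mutant mice. The difference was 0.12 (95% interval −0.19 to 0.43), or 109% wild type (limma, adjusted *p* = 0.696). *Pou3f1* is on the same chromosome as *Mutyh*, with 115 protein-coding genes between them in the RefSeq annotation. *Lefty1*, whose signal was the nearest to the intensity minimum, was 6.22, 6.18, and 6.27 in wild-type and 6.21, 6.31, and 6.12 in mutant mice. Its difference was −0.01 (95% interval −0.19 to 0.17, adjusted *p* = 0.969), and its SD over the 6 arrays, 0.07, was the smallest of the 7 genes.

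**Figure D1:**
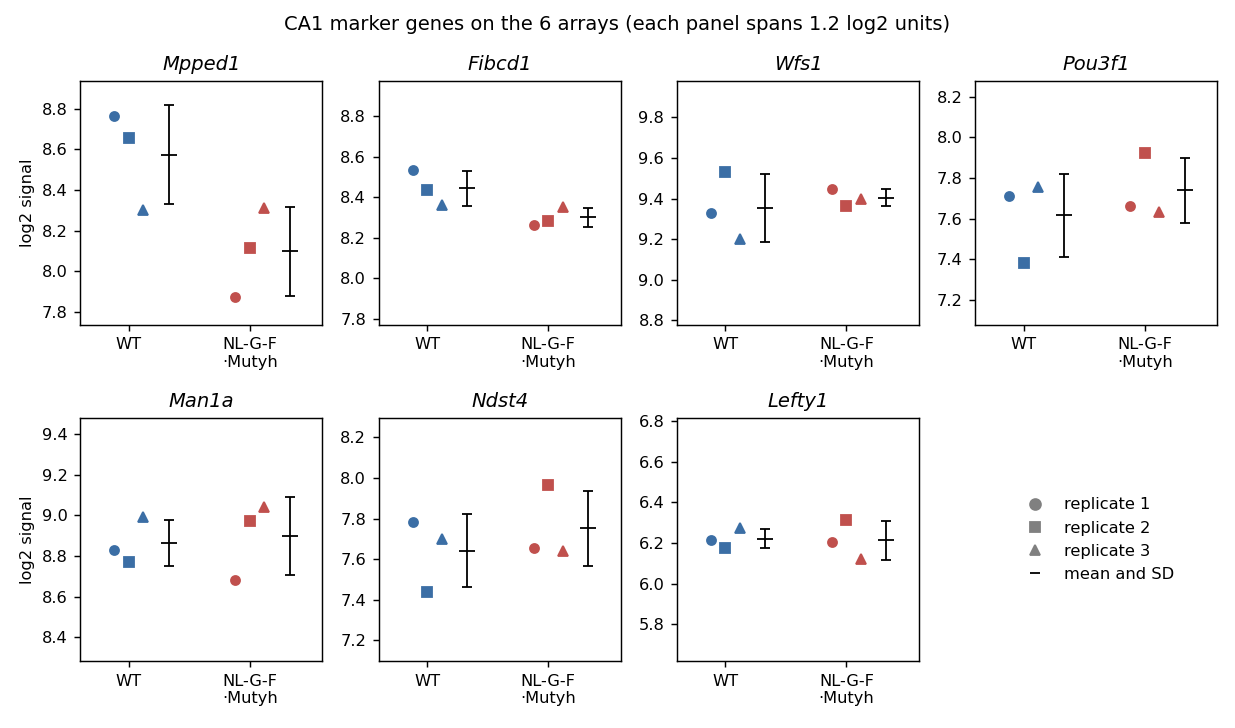
Log2 signal of the 7 CA1 markers on the 3 wild-type (WT, blue) and 3 mutant (NL-G-F·Mutyh, red) arrays, with marker shape for the replicate number and a bar for mean and SD. *Fibcd1* was lower on all 3 mutant arrays, *Mpped1* met at the third replicates (8.30 and 8.31), and the other 5 genes overlapped.

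Across the 7 genes, 4 had a positive and 3 a negative difference, and the range was −0.48 (*Mpped1*) to 0.12 (*Pou3f1*). None passed the test adjusted over all transcript clusters (limma, adjusted *p* 0.295 to 0.969), which 0.0614% of all tested transcript clusters did. The median of the 7 differences was 0.03, beside 0.02 over all 21159 tested transcript clusters, and their mean was −0.04. The mean log2 signal over the 7 genes was 8.17, 8.06, and 8.08 in wild-type and 7.97, 8.13, and 8.07 in mutant mice, with overlapping groups. Among the 6 genes whose 95% interval included 0, the bounds reached from −0.32 (*Fibcd1*) to 0.43 (*Pou3f1*), and 3 arrays per group cannot tell differences within their own interval from 0.

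**Figure D2:**
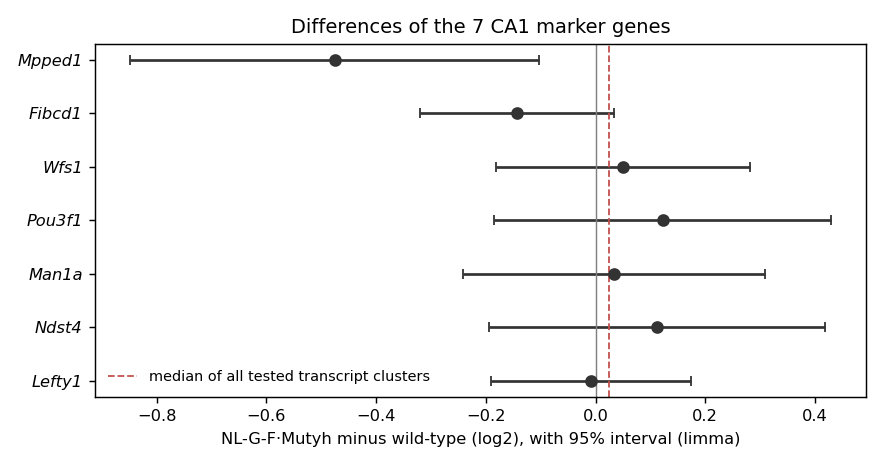
Difference of mutant mice from wild type on the log2 scale (points) with limma's 95% interval (bars) for each CA1 marker. The interval of *Mpped1* (−0.85 to −0.10) lies below 0 and those of the other 6 genes include it. The dashed line is the median of all tested transcript clusters, 0.02.

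The 7 markers did not go up and down as a set. Of their 21 pairs, 12 had a positive and 9 a negative Pearson's r between array deviations from the own group mean, with a median of 0.10 and a range of −0.84 to 0.96 (6 arrays, group means removed). These correlations are descriptions over 6 arrays, whose signals share an RNA sample and an array.

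*Pou3f1* and *Ndst4*, which lie on different chromosomes and encode proteins of unrelated function, had almost the same profile. Their log2 signals ranged over 0.54 and 0.52 between mice, but the SD of the difference between the 2 genes over the 6 arrays was 0.05. Pearson's r was 0.96 over the 6 log2 signals and 0.96 over deviations from the group means (Spearman's rho 0.94). Ranked by r of deviations with *Pou3f1*, *Ndst4* was at place 61 of 21158 transcript clusters. Without wild-type replicate 2 and mutant replicate 2, the arrays farthest from the median of *Pou3f1*, r was 0.62, so the strength of the relation rested on these 2 mice. *Lefty1* followed *Pou3f1* in rank (rho 0.94, r 0.73, and r 0.93 without these 2 mice), but over a range of only 0.19.

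*Mpped1* and *Fibcd1* formed another pair. Pearson's r was 0.96 over the 6 log2 signals (rho 0.94), 0.90 over deviations from the group means, and 0.98 without wild-type replicate 1 and mutant replicate 1. Both genes were highest in wild-type replicate 1 and lowest in mutant replicate 1. Within wild type both were lowest in replicate 3, and within mutant mice both were highest in replicate 3. *Fibcd1* was at place 795 of 21158 in likeness to *Mpped1* by deviations, behind many other transcript clusters. *Wfs1* followed neither pair. Its deviations had an r of 0.36 with *Mpped1*, 0.21 with *Fibcd1*, −0.84 with *Pou3f1*, and −0.68 with *Ndst4*. *Man1a* had its highest r, 0.45, with *Pou3f1*.

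**Figure D3:**
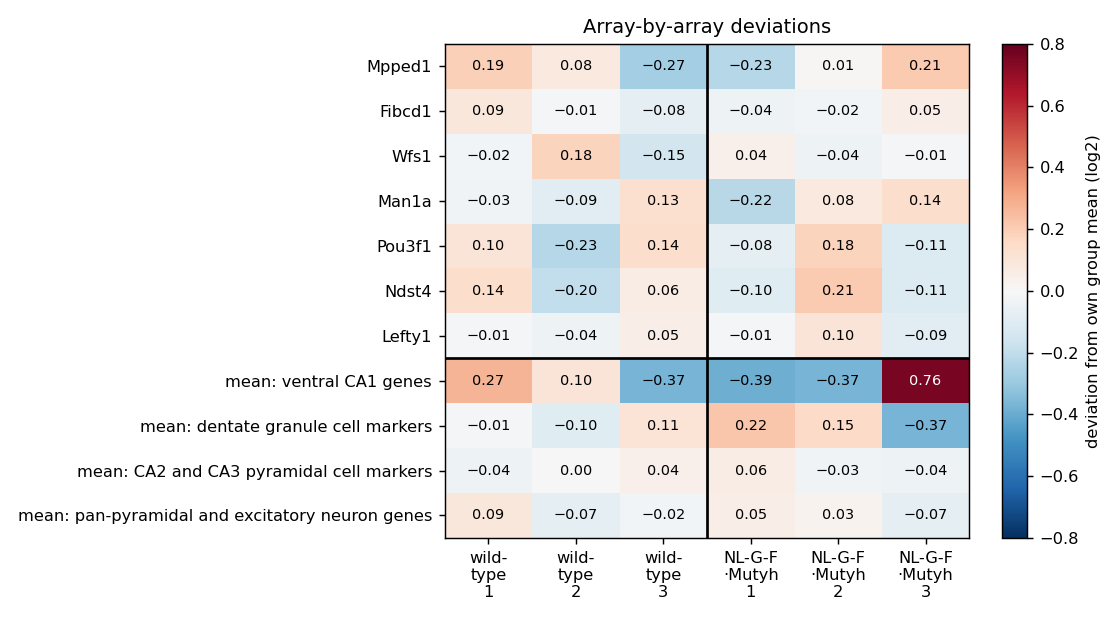
Deviation of each CA1 marker from the mean of its own group on each array (log2, red above and blue below), with the same for the means of 4 other gene lists under the horizontal line. *Pou3f1* and *Ndst4* share their pattern, *Mpped1* and *Fibcd1* share another, and the ventral CA1 genes of mutant replicate 3 lie 0.76 above their group mean.

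Other genes of the CA1 field went in both directions. *Spink8*, encoding a serine protease inhibitor of the Kazal type found in CA1 neurons, was 8.005, 7.82, and 7.74 in wild-type and 8.01, 8.26, and 8.11 in mutant mice (log2). All 3 mutant values lay above the wild-type ones, the nearest by a narrow margin, an order found in 13.9% of tested transcript clusters. The difference was 0.27 (limma, adjusted *p* = 0.328), opposite in sign to that of *Mpped1*. *Pex5l* differed by −0.03 (adjusted *p* = 0.877). Of the 2 further CA1-enriched genes analysed here, out of 4 listed, 0 passed the adjusted test and 1 was higher at an unadjusted *p* under 0.05, as were 8.88% of tested transcript clusters.

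Genes enriched in the ventral part of CA1 varied widely between mice. The neuropeptide gene *Grp* was 8.36, 8.27, and 7.85 in wild-type and 7.18, 7.16, and 8.07 in mutant mice (log2). Replicates 1 and 2 of the mutant mice were low, and replicate 3 lay within the wild-type range. The difference of *Grp* was −0.69 (95% interval −1.32 to −0.05, limma, adjusted *p* = 0.342). *Dcn*, encoding decorin, which fibroblasts and vessels also express, differed by −0.66 (adjusted *p* = 0.513), and *Ccn3*, encoding a matricellular protein, by −0.55 (adjusted *p* = 0.550). The mean of these 3 genes was 9.19, 9.02, and 8.55 in wild-type and 7.90, 7.91, and 9.05 in mutant mice. Their mean difference was −0.63 over all mice, −1.02 when mutant replicate 3 was left out, and −0.44 when mutant replicate 1 was left out. *Mpped1* was high and low with these genes (r 0.89 over the 6 arrays, rho 0.94, r 0.84 over deviations, and r 0.77 without wild-type replicate 1 and mutant replicate 1). So was *Fibcd1* (r 0.86, rho 0.83, r 0.78 over deviations, and r 0.82 without these arrays). *Wfs1* was not (r 0.04).

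Markers of dentate granule cells took the opposite course to *Mpped1*. The mean of 9 such genes was 7.89, 7.80, and 8.004 in wild-type and 8.43, 8.36, and 7.84 in mutant mice, so mutant replicate 3, which had the highest *Mpped1* signal of its group, had the lowest granule cell mean of its group. Their r with *Mpped1* was −0.85 over the 6 arrays (rho −0.83) and −0.74 over deviations from the group means. Their r was −0.82 without wild-type replicate 1 and mutant replicate 1. Their mean difference of 0.31 was 0.50 with mutant replicate 3 left out and 0.20 with mutant replicate 1 left out. Of the 9 genes, 8 had a positive difference (56.8% of all tested transcript clusters), 0 passed the adjusted test (0.0614%), and 3 were higher at an unadjusted *p* under 0.05 (8.88%). The smallest *p* was that of *Rfx3*, encoding a transcription factor of ciliated cells and granule neurons (0.42, limma, adjusted *p* = 0.274). Of 10 markers of CA2 and CA3 pyramidal cells, 0 passed and 3 were higher at an unadjusted *p* under 0.05 (8.88% of all tested transcript clusters). The smallest *p* was that of *Map3k15*, encoding a kinase (0.45, adjusted *p* = 0.189), which is 1 of these 3 and entered the test only through the mutant group, as its wild-type mean of 5.57 was below the intensity minimum. The mean of the 10 genes was 7.70, 7.74, and 7.78 in wild-type and 7.88, 7.79, and 7.78 in mutant mice. Its r with *Mpped1* was −0.96 (rho −0.94) and −0.92 over deviations from the group means. Without wild-type replicate 1 and mutant replicate 1 it was −0.98. Not all 10 genes took this course. Of their differences, 8 were positive (56.8% of all tested transcript clusters) and 2 negative. The negative ones were *Necab2* (−0.30, limma, adjusted *p* = 0.441) and *Coch* (−0.24, adjusted *p* = 0.680). Within both groups the order of the mice for *Necab2* was that of *Mpped1*, and r with *Mpped1* was not computed gene by gene. The mean of the 10 genes includes *Map3k15*, and neither the mean nor its r was computed without that gene. How much tissue of each hippocampal field entered each sample is not given in the sources used here, and its part in these differences was not tested.

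**Figure D4:**
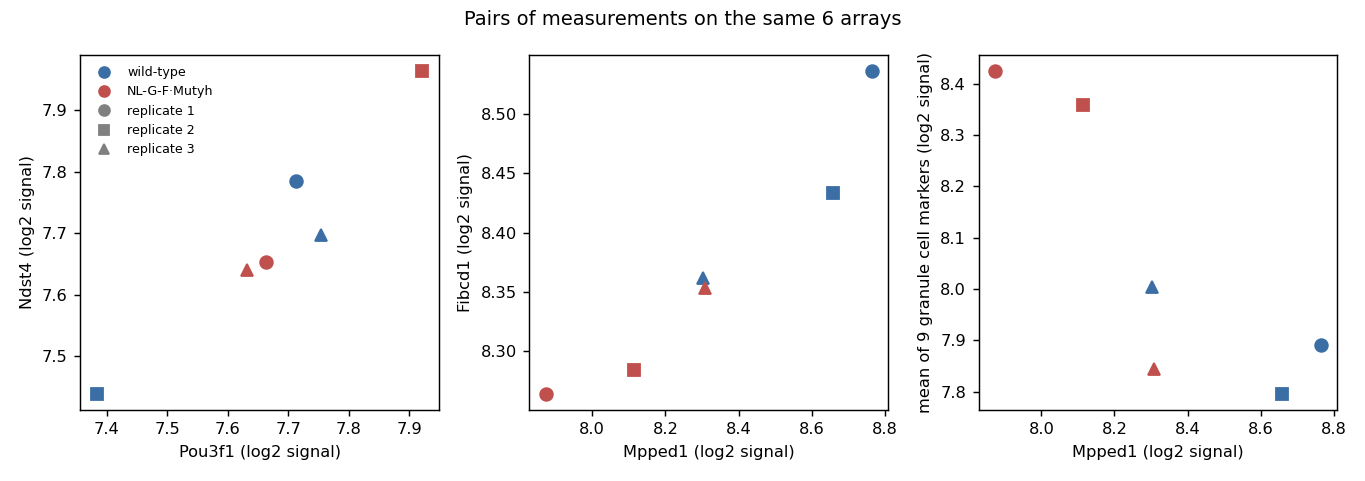
Log2 signals of *Ndst4* against *Pou3f1* (left), *Fibcd1* against *Mpped1* (middle), and the mean of 9 dentate granule cell markers against *Mpped1* (right) on the 3 wild-type (blue) and 3 mutant (red) arrays, with marker shape for the replicate number. The first 2 pairs rise together (r 0.96 for both) and the third falls (r −0.85).

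Paralogs of the markers were looked at to see whether a difference was shared within a gene family. *Mpped2*, the relative of *Mpped1*, differed by 0.12 (95% interval −0.18 to 0.43, limma, adjusted *p* = 0.692). *Ndst3*, a heparan sulfate enzyme like *Ndst4*, was 8.42, 8.33, and 8.31 in wild-type and 7.80, 8.09, and 8.22 in mutant mice (log2). All 3 mutant mice lay below wild type, an order found in 8.11% of all tested transcript clusters. Of the 9 paralogs tested, 1 (*Ndst3*) had this order and 1 had all mutant values above wild type (13.9% of all tested transcript clusters). Within both groups the order of the mice for *Ndst3* was that of *Mpped1*, not that of *Ndst4*. The difference of *Ndst3* was −0.31 (95% interval −0.59 to −0.04, adjusted *p* = 0.328), whereas *Ndst2* differed by −0.09 (adjusted *p* = 0.615). Differences of *Pou3f2*, *Pou3f3*, and *Pou3f4* were 0.03 to 0.05 (adjusted *p* 0.841 to 0.949), and those of the mannosidase genes *Man1a2*, *Man1b1*, and *Man1c1* −0.05 to 0.09 (adjusted *p* 0.582 to 0.892). *Lefty2*, separated from *Lefty1* by 1 protein-coding gene in the RefSeq annotation, was below the intensity minimum in both groups (4.60 and 4.51).

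Genes of neurons in general were looked at beside the CA1 markers. Of 8 genes of excitatory or all neurons, 7 had a positive difference (56.8% of all tested transcript clusters), 0 passed the adjusted test, and 1, *Neurod2*, encoding a transcription factor of excitatory neurons, was higher at an unadjusted *p* under 0.05 (0.30, limma, adjusted *p* = 0.295), a share near the 8.88% of all tested transcript clusters. *Slc17a7*, encoding the vesicular glutamate transporter of these cells, differed by 0.003 (95% interval −0.16 to 0.17). Markers of tissue next to the hippocampus were lower in several cases, with *Slc17a6*, the glutamate transporter gene of thalamus and subiculum, at −0.76 (adjusted *p* = 0.219) and the cortical gene *Cux2* at −0.45 (adjusted *p* = 0.247). All 4 neocortex, 4 of 5 thalamus, and both subiculum markers (*Nts* and *Fn1*, the latter with the smaller *p*, adjusted *p* = 0.481) had negative differences. Of all tested transcript clusters, 56.8% had a positive difference. None of these markers passed. Mean log2 signals over the 4 neocortex markers were 7.68 to 8.001 in wild-type and 7.66 to 7.70 in mutant mice. These markers include *Tbr1*, which had the same value on all 3 mutant arrays. Mean log2 signals over the 5 thalamus markers were 7.31 to 7.34 in wild-type and 7.09 to 7.17 in mutant mice, without overlap. Without *Slc17a6*, the mean of the other 4 was 7.18 to 7.27 and 7.05 to 7.23, with overlap and a difference of −0.07. *Prkcd*, another thalamus marker, was higher on all 3 mutant arrays (0.23, adjusted *p* = 0.311), an order found in 13.9% of all tested transcript clusters. Their part in the differences of CA1 markers was not tested.

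Markers of cells other than neurons were checked alongside. *Cd68*, a lysosomal gene of microglia, was 7.84, 7.88, and 7.80 in wild-type and 8.68, 8.71, and 8.68 in mutant mice (limma, adjusted *p* = 0.0170), and was the 1 of 6 microglia markers that passed. *Gfap* of astrocytes differed by 0.68 (adjusted *p* = 0.0857) and the myelin gene *Cnp* by −0.24 (adjusted *p* = 0.295). *Cldn5*, encoding a tight junction protein of vessels, differed by −0.43 (adjusted *p* = 0.274), while 2 of the 4 endothelial markers tested had positive differences and their median was 0.02. *Ly6c1*, an endothelial marker below the intensity minimum in both groups, was at 4.97 and 5.49. *Pvalb* of interneurons differed by −0.12 (adjusted *p* = 0.521) and *Otx2* of choroid plexus by 0.56 (adjusted *p* = 0.640). None of the 6 astrocyte, 8 interneuron, 5 oligodendrocyte, 4 endothelial, and 5 choroid plexus markers tested passed. Differences were positive in 5 of 6 microglia, 5 of 6 astrocyte, and 3 of 8 interneuron markers. They were positive in 1 of 5 oligodendrocyte and 4 of 5 choroid plexus markers, beside 56.8% of all tested transcript clusters. At an unadjusted *p* under 0.05 (limma), 3 of 5 oligodendrocyte and 1 of 4 endothelial markers were lower (4.75% of all tested transcript clusters). At the same mark, 4 of 6 microglia and 1 of 6 astrocyte markers were higher (8.88%). In contrast to *Mpped1*, *Cd68* was nearly level within each group, and the groups lay far apart.

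Genes with a profile close to the mean deviation of the 7 genes over the 6 arrays were sought by r. The highest were *Cyp2d22* (r 0.995), *Ube2d2a* (0.994), *Nol4* (0.994), *Mir194-2* (0.992), and *Mex3d* (0.991). Of 13981 other tested transcript clusters with 1 symbol, 128 had an r of 0.9 or more, and none of the 5 passed the adjusted test (limma, adjusted *p* 0.211 to 0.946). The mean deviation itself reached no further than −0.09 to 0.08. As the 7 markers did not go up and down as a set, it is not a profile that they share. An r picked as the highest of so many over 6 arrays does not show a relation to CA1.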

How the data were processed

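Array files had been processed by the authors with Transcriptome Analysis Console 4.0. The deposited values are log2 signals for each transcript cluster, and no further scaling was applied. Neither the genome build nor the method of summarization and normalization is given in the sources used here. Of 41345 transcript clusters, 23521 carried 1 gene symbol, 1820 several, and 16004 none. Groups and replicate numbers came from the sample titles. Per the labels, replicates are separate mice.

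Transcript clusters with a group mean of at least 50 in intensity (5.64 in log2) in either or both groups entered the test (21159) with limma 3.58.1 in R 4.3.3 (moderated test, two-sided, Benjamini-Hochberg adjustment over all of them, threshold 0.05). Precision is limited by the 3 arrays per group. Intervals are 95% intervals of limma. Levels in % wild type are the log2 differences put back on the linear scale. The test was run on simulated data first. Promoter sequences are those of RefSeq.

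Named genes were the 7 markers, their paralogs, the gene with the smallest *p* of each other list, and the 5 profiles most like the mean of the markers. Other genes named for their values were added after these had been seen. They are *Pex5l*, *Dcn*, *Ccn3*, *Slc17a7*, *Nts*, *Prkcd*, *Ly6c1*, *Tbr1*, *Ttr*, *Necab2*, *Coch*, *Rgs16*, and *Grik4*. Members and lists were chosen with earlier results of these data known. Listed genes without a row of their own are not analysed here. Alternatives were other intensity minima, 1-symbol clusters only, quantile normalization, median centring, trended moderation, weighting of arrays, the replicate number as a block, leaving out single arrays, and the mean of a gene's rows. Leaving out transcript clusters with identical values within a group was added after seeing the data.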

Additional observations from a re-analysis of the deposited data

How the results depend on the processing

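None of the 7 CA1 markers passed the adjusted test in any of the 17 alternatives. With 1 array left out, the difference of *Mpped1* ran from −0.61 to −0.36, that of *Fibcd1* from −0.18 to −0.10, that of *Pou3f1* from 0.01 to 0.19, and that of *Ndst4* from 0.01 to 0.18, with no change of sign in these or in the other settings. Signs changed for genes near 0. *Wfs1* ran from −0.027 to 0.14 and *Man1a* from −0.037 to 0.14 with an array left out, and *Lefty1* from −0.058 to 0.038. With array weights, *Pou3f1* and *Ndst4* were both at 0.27 (adjusted *p* 0.294 and 0.299), *Wfs1* was at −0.0087 and *Lefty1* at 0.052. With arrays centred on the median over all transcript clusters, *Man1a* was at −0.015.

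The mean difference of the 7 genes lay between −0.09 and 0.003 over all settings. The number of genes lower at an unadjusted *p* under 0.05 (*Mpped1*) was 0 to 1 with an array left out. The number lower on every mutant array was 1 to 2 with an array left out (2 without wild-type or mutant replicate 3, where *Mpped1* joined *Fibcd1*). It was 2 after quantile normalization or after that centring. With an array left out, fewer values have to be in order. The share of all tested transcript clusters with this order was 8.11% as deposited and was not computed for the other settings, so these counts cannot be set beside it. Of all tested transcript clusters with an unadjusted *p* under 0.05, 65.1% were higher as deposited, 51.1% with quantile normalization, and 39.8% with centring on the median of all transcript clusters.

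Same-numbered arrays of the 2 groups had correlations of deviations of −0.10, 0.02, and −0.06, and arrays with different numbers −0.07 to 0.13. With 3 arrays per group, these values cannot tell whether replicate numbers paired the mice. With the replicate block, the difference of *Mpped1* was −0.48 with an adjusted *p* of 0.440, and 2 in place of 13 transcript clusters passed. The number that passed was also 43 with 1-symbol clusters only, 42 with array weights, 8 with the minimum in both groups, and 2 to 3 with an array left out. The causes were not tested.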

Other observations

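Identical deposited values within a group are uneven between the genotypes. On the 3 mutant arrays, 4834 of 41345 transcript clusters had the same value on at least 2 arrays, and 619 of them on all 3. On the 3 wild-type arrays the numbers were 122 and 1, and between arrays of different groups 6 transcript clusters shared a value. Among tested transcript clusters the share was 8.71% in mutant and 0.132% in wild-type mice. An example is *Tbr1*, encoding a transcription factor of cortical neurons, at 7.22 on all 3 mutant arrays and at 7.66, 7.47, and 7.22 in wild-type mice, chosen after its values were seen. Other genes used here share a value between mutant arrays. The paralogs *Pou3f2* (6.2069) and *Man1c1* (8.4408) do so on replicates 1 and 3. Among list members, *Rgs16* of the thalamus markers (6.9259) and *Grik4* of the CA2 and CA3 markers (8.3235) do so as well. The median SD of tested transcript clusters was 0.12 among wild-type and 0.10 among mutant mice. With all such transcript clusters left out, 14 of 19291 passed the adjusted test and *Mpped1* had an adjusted *p* of 0.306. The differences of the 7 CA1 markers are the same in that setting, as none of them was affected.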
